A study of Mus musculus with 14 samples.

Results

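Keratins are the intermediate filament proteins of epithelial cells, and the 54 keratin genes among the 55228 genes counted are described here. They were taken as every gene whose symbol is Krt, a number and at most an a or b, which leaves out the keratin-associated proteins. The series measured RNA by sequencing in epithelium of the developing mouse lower urinary tract and asks which genes mark its compartments. All 14 libraries came from wildtype, untreated female embryos of the outbred CD-1 strain, with the females of a litter pooled, and a litter gave both a bladder and a urethral library. There were 4 libraries of bladder epithelium and 4 of urethral epithelium at embryonic day (E) 14.5, and 3 of each at E18.5. The epithelium had been pulled off the mesenchyme with forceps after trypsin, so each library is a bulk sample of whatever that layer held. Per the labels a replicate is a litter, although the notes on extraction give 3 litters for every kind of sample.

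Keratin filaments are built from pairs, each made of a smaller acidic type I chain and a larger basic type II chain, so a cell makes at least one gene of each type. Simple epithelia and the inner layers of many ducts make Krt8 (type II) with Krt18 and Krt19 (type I), and urothelium adds Krt7. Stratified epithelia make Krt5 (type II) with Krt14 or Krt15 (type I) in the basal layer, then Krt4 with Krt13 above it in moist mucosa or Krt1 with Krt10 in epidermis. Krt20 marks the superficial umbrella cells of urothelium, and Krt6a, Krt6b, Krt16 and Krt17 appear in wounded or appendage epithelium. Vertebrate keratin genes lie in a pair of clusters, and here 27 of the 28 type I genes were on chromosome 11, while all 26 type II genes and the type I gene Krt18 were on chromosome 15, where Krt18 lies beside Krt8.

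Library totals ran from 21101269 to 36810672 counts. Levels are given as CPM, counts scaled to a common library total by trimmed means, and levels of different genes are compared per kilobase of gene length. The label of epithelium was checked with 7 general epithelial genes, St14, Spint1, Spint2, Epcam, Esrp1, Esrp2 and Cdh1, none at 0 in any group. Their summed level was 4353 ± 301 CPM (SD, n = 4) in E14.5 bladder, 2347 ± 905 in E14.5 urethra (n = 4), 3026 ± 381 in E18.5 bladder (n = 3) and 3868 ± 299 in E18.5 urethra (n = 3). Markers of other cells were present too: 15 mesenchyme genes, none at 0, summed to 2644 ± 1457, 3901 ± 1695, 25860 ± 5499 and 5139 ± 493 CPM in the same order, and 10 smooth muscle genes, none at 0, to 407 ± 170, 565 ± 97.2, 9601 ± 4166 and 1726 ± 658 CPM. Both sums were highest in E18.5 bladder, and their part in the keratin values was not tested beyond scaling on the pan-epithelial genes. In bulk tissue, fewer cells of a type and less RNA per cell cannot be told apart. Among the E14.5 urethral libraries, replicate 1 stood apart, with a pan-epithelial sum of 3659 against 1656 to 2217 CPM and a mesenchyme sum of 2310 against 3267 to 6280 CPM. Of the 20 keratins that reached 10 CPM in some group, replicate 1 was the highest of the 4 for 18, and replicate 3, which had the lowest pan-epithelial sum, was the lowest for 14.

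The promoters of 5 keratins are shown first, 4 from classes that the results turn on and 1 for contrast. Each runs from 250 bases before to 50 bases after the RefSeq start on the gene's own strand (GRCm38.p6). Capitals mark matches, on either strand, to the 6 short motifs searched: TATAAA, the AP-1 motif TGANTCA, the GC box GGGCGG, the AP-2 motif GCCNNNGGC, the grainyhead motif AACCNGTT and the GATA motif AGATAA. Krt18 (chr15:102027966-102028265, plus strand), Krt20 (chr11:99438104-99438403, minus), Krt5 (chr15:101712856-101713155, minus) and Krt13 (chr11:100121517-100121816, minus) stand for the simple, superficial, basal and mucosal genes. Krt31 (chr11:100050502-100050801, minus), a hair keratin under 1 CPM in every group, stands for the genes with few or no counts.
Krt18: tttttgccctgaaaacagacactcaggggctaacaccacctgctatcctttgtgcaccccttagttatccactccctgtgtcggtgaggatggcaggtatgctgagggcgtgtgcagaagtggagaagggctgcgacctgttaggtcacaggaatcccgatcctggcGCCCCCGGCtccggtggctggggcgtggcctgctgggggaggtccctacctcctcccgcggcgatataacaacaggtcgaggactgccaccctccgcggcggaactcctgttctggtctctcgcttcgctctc
Krt20: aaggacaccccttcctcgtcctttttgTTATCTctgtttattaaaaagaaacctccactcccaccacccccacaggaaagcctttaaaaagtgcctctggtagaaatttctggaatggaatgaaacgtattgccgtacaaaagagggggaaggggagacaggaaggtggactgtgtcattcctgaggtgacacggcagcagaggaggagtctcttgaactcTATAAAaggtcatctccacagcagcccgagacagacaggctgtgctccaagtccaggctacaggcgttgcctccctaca
Krt5: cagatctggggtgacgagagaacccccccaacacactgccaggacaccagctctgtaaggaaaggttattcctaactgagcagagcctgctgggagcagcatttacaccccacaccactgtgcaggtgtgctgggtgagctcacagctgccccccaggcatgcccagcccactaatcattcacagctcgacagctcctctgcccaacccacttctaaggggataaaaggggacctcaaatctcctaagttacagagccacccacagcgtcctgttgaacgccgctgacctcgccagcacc
Krt13: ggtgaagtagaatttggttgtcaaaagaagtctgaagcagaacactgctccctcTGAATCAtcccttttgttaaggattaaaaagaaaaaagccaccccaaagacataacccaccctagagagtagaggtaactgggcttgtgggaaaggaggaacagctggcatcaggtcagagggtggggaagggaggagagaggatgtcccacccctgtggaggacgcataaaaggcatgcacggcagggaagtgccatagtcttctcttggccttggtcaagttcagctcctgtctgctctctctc
Krt31: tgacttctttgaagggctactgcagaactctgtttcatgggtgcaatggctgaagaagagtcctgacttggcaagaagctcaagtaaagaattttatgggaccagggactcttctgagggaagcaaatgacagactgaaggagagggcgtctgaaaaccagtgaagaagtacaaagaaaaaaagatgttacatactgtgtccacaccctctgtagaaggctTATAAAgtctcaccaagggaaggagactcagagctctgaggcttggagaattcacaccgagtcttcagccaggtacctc
In Krt20 and in Krt31 TATAAA began at position -29 from the start, and the Krt20 window also held one GATA match. The Krt18 window held one AP-2 match, the Krt13 window one AP-1 match, and the Krt5 window no match to any of the 6.

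RefSeq promoters matched 36 of the 54 keratins by symbol, 37 promoters in all because Krt13 had a second one. TATAAA was in 19 of these 37 (51.4%), against 13.6% of all 32851 promoters in the table. Among keratins under 1 CPM it was in 15 of 20 promoters, and among those of 10 CPM or more in 3 of 14 (Krt10, Krt20 and Krt8). The GC box was in 5.41% of keratin promoters and 35.7% of all, and the GATA motif in 27% and 11.2%. The AP-2 motif was in 18.9% and 16.6%, the AP-1 motif in 5.41% and 7.81% (both windows of Krt13), and the grainyhead motif in 0 of 37 and 2.09%. These are exact matches of letters in a fixed window, and no test was made on them. Near variants of TATAAA were not counted, such as gataaa in Krt5, cataaa in the Krt13 window shown and, under 1 CPM, aataaa in Krt82. The counts by level therefore hold for the exact letters only. The RefSeq start can differ from the start of the counted gene, by 36 bases or fewer for the 5 shown. The largest differences were 1518 bases for Krt14, 1360 for Krt7, 989 for the second Krt13 window and 140 for Krt8. All of these are keratins of 10 CPM or more, so their windows can miss the start of the counted gene. The place of TATAAA also varied, with -3 and -1 in Krt8, 19 in Krt42 and -203 in Krt72.

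Of the 54 keratins, 20 reached 10 CPM in at least 1 group, 5 reached 1 to 10 CPM, and 29 stayed under 1 CPM in every group. These 29 were mainly genes of hair and of the hair follicle: 13 of 15 hair and nail keratins (Krt31, Krt32, Krt33a, Krt33b, Krt34, Krt35, Krt39, Krt40, Krt81, Krt82, Krt83, Krt86 and Krt87) and 8 of 9 follicle sheath keratins (Krt25, Krt26, Krt27, Krt28, Krt71, Krt72, Krt73 and Krt74, the last annotated as a pseudogene). The others were the corneal keratins Krt12 and Krt24, the palm and sole keratin Krt9, the palate keratin Krt76, and Krt42, Krt88, Krt90 and Krt222. Krt26, Krt40, Krt71 and Krt81 had 0 counts over all 14 libraries.

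The keratin transcripts of the bladder were mostly of the simple class, and in the urethra the basal class had the highest mean share at both stages. As shares of the summed keratin CPM per kilobase, the simple keratins (Krt7, Krt8, Krt18, Krt19 and Krt23) made up 79.2 ± 5.22% (SD, n = 4) in E14.5 bladder, 34.5 ± 10.6% (n = 4) in E14.5 urethra, 65.2 ± 3.40% (n = 3) in E18.5 bladder and 29.3 ± 2.28% (n = 3) in E18.5 urethra. The lowest bladder library (61.3%) lay above the highest urethral one (50.1%, E14.5 replicate 3). Basal keratins (Krt5, Krt14 and Krt15) made up 17.4 ± 5.06, 54.4 ± 7.79, 30.4 ± 3.59 and 43.1 ± 2.26% in the same order. Mucosal suprabasal keratins (Krt4, Krt13, Krt76 and Krt78) made up 2.78 ± 0.83, 7.0 ± 4.41, 2.86 ± 0.352 and 23.2 ± 1.16%, so that the E18.5 urethra stood apart from the other groups. Wound-type keratins (Krt6a, Krt6b, Krt16 and Krt17) stayed at 0.115 ± 0.0477 and 0.220 ± 0.0814% of the bladder total at E14.5 and E18.5, against 2.75 ± 0.783 and 3.36 ± 0.316% of the urethral total. These shares divide one keratin by another within a library, so RNA from cells without keratins does not enter them.

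**Figure D1:**
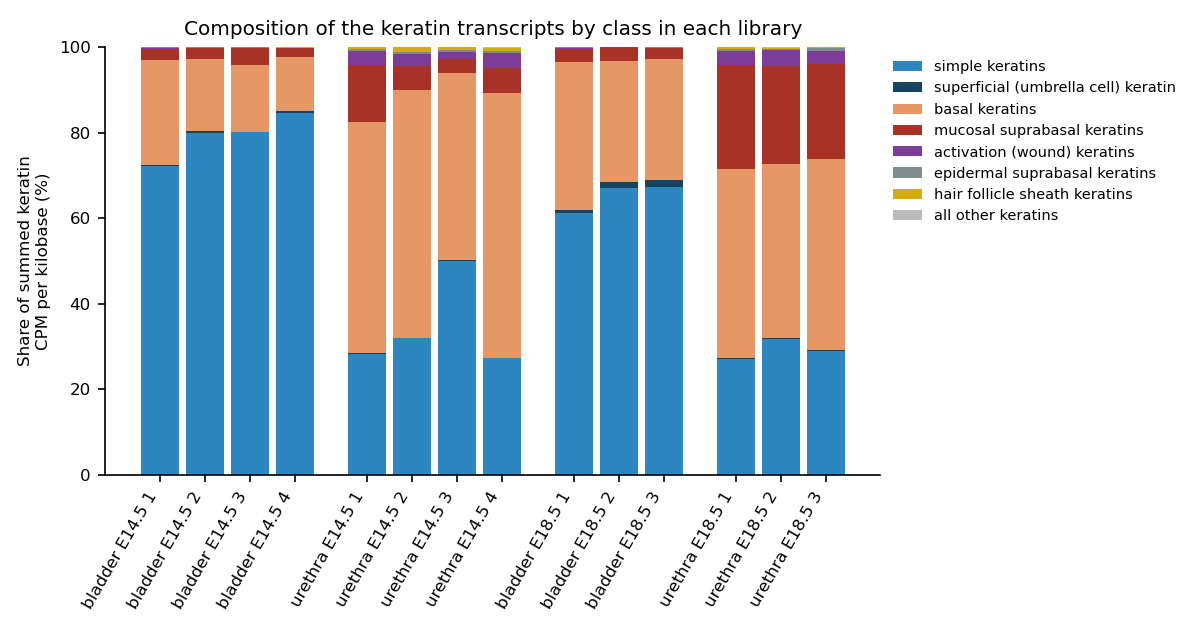
Each bar is 1 library and its parts are the shares (%) of summed keratin CPM per kilobase taken by each class of keratin. Simple keratins take 61.3 to 84.7% of every bladder bar and 27.2 to 50.1% of every urethral bar, and the mucosal suprabasal part reaches 22.1 to 24.4% in the E18.5 urethra.

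Single genes ranked as follows per kilobase. In E14.5 bladder Krt8 (1207 ± 92.9 CPM per kilobase, SD), Krt19 (962 ± 34.8) and Krt18 (930 ± 166) led, and Krt19 and Krt18 overlapped. In E18.5 bladder Krt18 (1596 ± 442) and Krt8 (1417 ± 398) overlapped at the top, followed by Krt19 (1052 ± 103) and Krt15 (1017 ± 83.6), which overlapped each other and the lowest library of Krt8 (968). The lowest library of Krt18 (1105) also lay within the range of Krt19 (971 to 1167). In both urethral groups Krt15 led (1110 ± 573 at E14.5 and 2370 ± 260 at E18.5). Behind it came Krt5 (633 ± 388), overlapping it, at E14.5, and Krt4 (1485 ± 144) at E18.5, followed by Krt19 (1075 ± 178) and Krt5 (1030 ± 19.7), which overlapped. By CPM over all genes, Krt15 was the second most counted gene of the E18.5 urethra and Krt4 the third. Summed type I chains exceeded summed type II chains per kilobase in every group, by 1.62 ± 0.0366, 1.45 ± 0.149, 1.45 ± 0.0375 and 1.31 ± 0.0581 times in the order used above. This direction depends on the length: by CPM alone the ratios were 1.10 ± 0.0101, 1.09 ± 0.107, 0.950 ± 0.0237 and 0.971 ± 0.0356, so that type II was the larger sum on average at E18.5. The counted lengths of Krt7 (7049 bases), Krt1 (4415), Krt79 (4753) and Krt80 (6393) are longer than their main transcripts of 4094, 2455, 2097 and 3067 bases, which lowers their values per kilobase.

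Between tissues, more keratins were higher in urethra than in bladder at both stages. Differences were tested with edgeR's quasi-likelihood test, with Benjamini-Hochberg adjusted p under 0.05 over all genes, called passing below. At E14.5, 22 keratins had enough counts to test: 6 were higher in bladder (23.1% of all tested genes were) and 10 higher in urethra (20.9% of all), with a median log2 difference, bladder minus urethra, of -1.21 over the 22 and -0.03 over all genes. At E18.5, 27 were tested: 4 were higher in bladder (19.3% of all) and 21 higher in urethra (18.6% of all), with medians of -2.58 and -0.03. The 4 became 1 without bladder replicate 3 or without urethra replicate 1. Krt7, Krt8, Krt18 and Krt20 were higher in bladder at both stages. The 10 keratins higher in urethra at E14.5 were all higher there at E18.5, where they made up 47.6% of the 21. Krt78 was the 1 keratin that passed in opposite directions at the 2 stages.

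Between stages, 18 keratins rose in the urethra and 7 in the bladder. Of 28 tested in bladder, 7 were higher at E18.5 (19.9% of all tested genes were) and 1 lower (20.4% of all), with medians of 0.54 over keratins and -0.00 over all genes. The 1 became 0 without E14.5 replicate 4 or E18.5 replicate 2. Of 28 tested in urethra, 18 were higher at E18.5 (17.3% of all) and 0 lower (15.7% of all), with medians of 1.65 and 0.00. The count of 0 was the same at an unadjusted p under 0.05, with DESeq2 and with voom. The interaction, which asks whether the bladder-minus-urethra difference itself changed between stages, moved 1 of 28 keratins toward bladder (12.2% of all genes) and 5 toward urethra (10.7% of all), with medians of -1.27 and -0.01. Single libraries moved these counts. Without bladder E14.5 replicate 1, 2 keratins moved toward bladder, Krt5 being added. Without urethra E14.5 replicate 1, 13 moved toward urethra, the added genes being Krt1, Krt2, Krt4, Krt6a, Krt6b, Krt7, Krt8 and Krt10 (adjusted p 6.69e-04 to 0.0236, and log2 -0.96 to -4.01 for those other than Krt2, which had 0 counts in E18.5 bladder). Krt36 was added without urethra E14.5 replicate 2 (-2.2, adjusted p = 0.0311) and Krt84 without bladder E18.5 replicate 3 (adjusted p = 0.0189), which leaves its E18.5 bladder group at 0 counts, so that no size is given. With a replicate block, which treats libraries of the same number as 1 litter, 2 keratins moved toward bladder, Krt5 being added, and 9 toward urethra, Krt2, Krt6a, Krt7 and Krt75 being added (adjusted p 0.00409 to 0.0361).

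Scaling by the 7 pan-epithelial genes in place of all genes moved the median of all genes to -0.99 at E14.5, 0.36 at E18.5, 0.54 for bladder stage, -0.76 for urethral stage and 1.29 for the interaction, so a share of all genes is given beside each count. At E14.5, 6 keratins were higher in bladder (3.23% of all genes) and 13 in urethra (67.6%). At E18.5, 4 were higher in bladder (29.4%) and 19 in urethra (7.64%). The stage tests gave 14 keratins higher (32.8%) and 0 lower (1.66%) in bladder, and 13 higher (5.77%) and 0 lower (48.8%) in urethra. For the interaction the split changed from 1 and 5 to 4 toward bladder (68.4%) and 5 toward urethra (1.59%). Measured against the same 7 genes, the summed CPM of all keratins was 1.87 ± 0.199 times theirs in E14.5 bladder, 2.63 ± 0.509 in E14.5 urethra, 4.37 ± 0.185 in E18.5 bladder and 4.37 ± 0.471 in E18.5 urethra. Passing differences at E14.5 were smaller on this scale for the genes higher in bladder, at 0.50 for Krt19, 0.82 for Krt8, 1.01 for Krt18, 1.05 for Krt78, 1.07 for Krt7 and 1.92 for Krt20. In the ratio of sums the E14.5 libraries reached at most 3.2 and the E18.5 libraries at least 4.02, so the stages did not overlap.

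**Figure D2:**
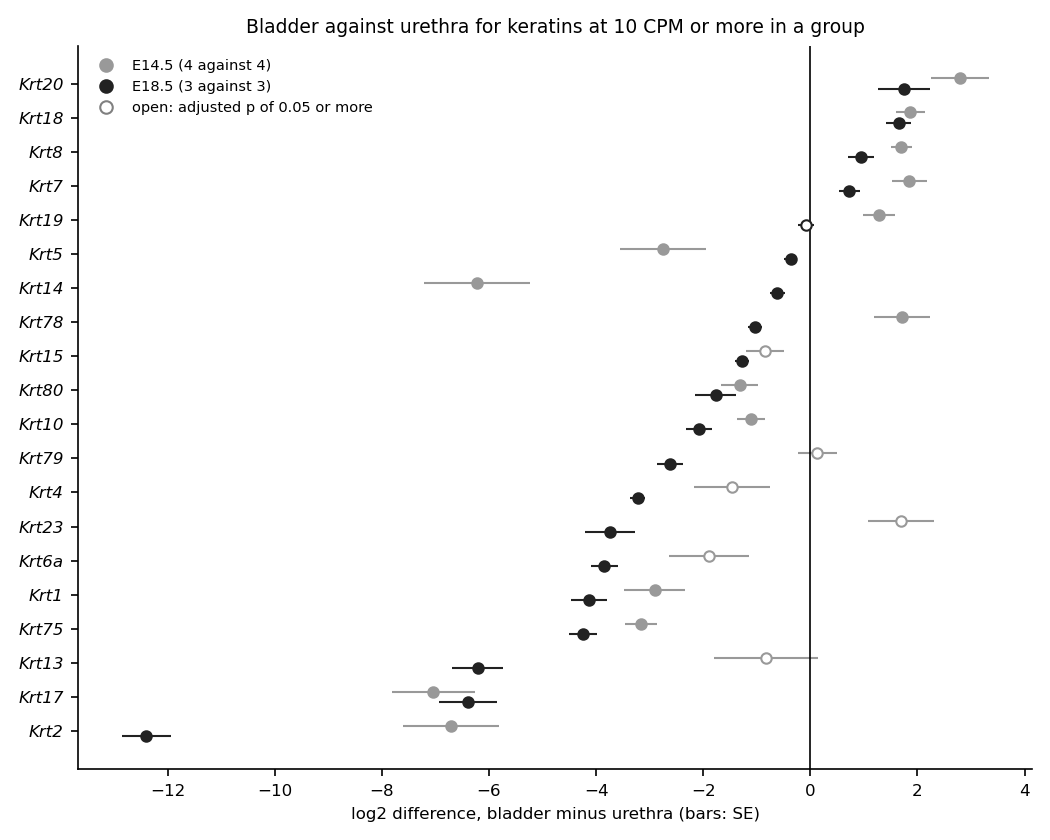
Points are the log2 difference, bladder minus urethra, of each keratin of 10 CPM or more, at E14.5 (grey, 4 against 4 libraries) and E18.5 (black, 3 against 3), with bars of 1 SE. Points right of 0 are higher in bladder, and open points did not pass. Krt14 and Krt5 lie near 0 at E18.5 (-0.62 and -0.37) after -6.23 and -2.75 at E14.5, while Krt17 lies at -7.04 and -6.39. The E18.5 point of Krt2 is fitted against 0 counts in bladder, so its place depends on the fit.

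The simple keratins Krt8 and Krt18, partners in the filaments of simple epithelia, were higher in bladder at both stages. For replicates in order, Krt8 (type II, chromosome 15, 101996698 to 102004482) was at 2248, 2471, 2176 and 2561 CPM in E14.5 bladder and 1028, 670, 630 and 526 CPM in E14.5 urethra. At E18.5 it was at 1896, 3045 and 3382 CPM in E18.5 bladder and 1185, 1788 and 1209 CPM in E18.5 urethra. No bladder library overlapped a urethral one of its stage, and the difference was 3.24-fold at E14.5 (log2 1.70, SE 0.20, adjusted p = 6.10e-04) and 1.92-fold at E18.5 (log2 0.94, SE 0.24, adjusted p = 0.0163). Krt18 (type I, chromosome 15, 102028180 to 102032027) was at 1495, 1388, 986 and 1474 CPM in E14.5 bladder and 567, 302, 335 and 232 CPM in E14.5 urethra. By E18.5 the level was 1587, 2479 and 2816 CPM in E18.5 bladder and 571, 805 and 738 CPM in E18.5 urethra. The groups did not overlap at either stage, with differences of 3.64-fold (log2 1.87, SE 0.27, adjusted p = 0.00128) and 3.14-fold (log2 1.65, SE 0.23, adjusted p = 8.28e-04).

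The ratio between these partners differed in E18.5 bladder. Per kilobase, Krt8 was 1.10 to 1.62 times Krt18 in E14.5 bladder, 1.33 to 1.67 times in E14.5 urethra and 1.20 to 1.63 times in E18.5 urethra, but 0.877 to 0.901 times in the 3 E18.5 bladder libraries, which lay below all others. In bladder Krt18 rose 1.72-fold from E14.5 to E18.5 (log2 0.78, SE 0.28, adjusted p = 0.0375), a call lost without any one of E14.5 replicates 2, 3 and 4 or E18.5 replicates 2 and 3 (log2 0.59 to 0.85, adjusted p 0.0561 to 0.160), while Krt8 stood at 1.17-fold (adjusted p = 0.473). With pan-epithelial scaling the bladder change of Krt8 passed (0.75, adjusted p = 0.00622), where the median of all genes was 0.54. In urethra both rose, Krt8 1.95-fold (adjusted p = 0.00819) and Krt18 1.96-fold (adjusted p = 0.0169). Neither passed there with pan-epithelial scaling (log2 0.29 and 0.33), and Krt18 did not pass without E14.5 replicate 2 (0.90, adjusted p = 0.0545) or E18.5 replicate 2 (0.90, adjusted p = 0.0674). The E18.5 difference of Krt8 did not pass without bladder replicate 3 (0.79, adjusted p = 0.0507) or urethra replicate 1 (0.83, adjusted p = 0.0659). In 100-base words of its transcripts, Krt8 shared 17.1% with other genes, chiefly the pseudogene Krt8-ps, and reads that fit both could count to either.

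Krt19 and Krt7, the other abundant simple keratins, were higher in bladder at E14.5 and rose in urethra by E18.5. Krt19, a small type I keratin (chromosome 11, 100140810 to 100148665), was at 1688, 1825, 1815 and 1807 CPM in E14.5 bladder and 1256, 682, 466 and 467 CPM in E14.5 urethra. The E18.5 libraries had 1887, 1801 and 2165 CPM in E18.5 bladder and 2039, 2299 and 1644 CPM in E18.5 urethra. The 2.44-fold difference at E14.5 (log2 1.29, SE 0.30, adjusted p = 0.00976), without overlap, was 1.06-fold in the other direction at E18.5 (log2 -0.08, SE 0.15, adjusted p = 0.695). Krt19 rose 2.78-fold in urethra (adjusted p = 0.00196) and stood at 1.09-fold in bladder (adjusted p = 0.747). With pan-epithelial scaling the bladder change passed (0.67, adjusted p = 0.00532), where the median of all genes was 0.54. The interaction was -1.34 (SE 0.40, adjusted p = 0.0278). It did not pass without any one of 8 of the 14 libraries (E14.5 bladder replicate 4, E14.5 urethra replicates 2, 3 and 4, and replicates 1 and 2 of both E18.5 groups, -1.16 to -1.35, adjusted p 0.0526 to 0.0723) or with pan-epithelial scaling (-0.20).

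Krt7, the type II keratin of urothelium and glands (chromosome 15, 101411043 to 101430313), was at 1230, 1055, 859 and 940 CPM in E14.5 bladder and 503, 238, 197 and 170 CPM in E14.5 urethra. Values at E18.5 were 1510, 1832 and 1942 CPM in E18.5 bladder and 922, 1323 and 824 CPM in E18.5 urethra. Bladder libraries were higher without overlap at both stages, by 3.62-fold (log2 1.85, SE 0.33, adjusted p = 0.00301) and 1.66-fold (log2 0.73, SE 0.19, adjusted p = 0.0164). At E18.5 Krt7 did not pass without bladder replicate 3 (0.67, adjusted p = 0.0509), without urethra replicate 1 (0.66, adjusted p = 0.0689) and in a fit of all 14 libraries (0.78, adjusted p = 0.0879). Krt7 rose 3.70-fold in urethra (adjusted p = 9.87e-04), and in bladder stood at 1.73-fold (adjusted p = 0.0585), which passed with DESeq2 (adjusted p = 0.0431), with voom (adjusted p = 0.0438) and with pan-epithelial scaling (adjusted p = 1.60e-04). Its interaction passed with voom (-1.20, adjusted p = 0.0479) and with a replicate block (-1.21, adjusted p = 0.0248). Its gene overlaps Gm671 on the other strand over 1269 bases, and the strand setting of the counting is not given in the sources used here.

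Krt20, the keratin of superficial umbrella cells, rose in both tissues and was higher in bladder. This type I gene (chromosome 11, 99428403 to 99438150) was at 31.0, 27.3, 5.47 and 36.5 CPM in E14.5 bladder and 5.59, 2.75, 2.89 and 2.91 CPM in E14.5 urethra. Later, the libraries were at 71.0, 186 and 229 CPM in E18.5 bladder and 27.3, 78.3 and 34.2 CPM in E18.5 urethra. It was 6.94-fold higher in bladder at E14.5 (log2 2.79, SE 0.54, adjusted p = 0.00423), where bladder replicate 3 lay just under urethra replicate 1, and 3.35-fold higher at E18.5 (log2 1.75, SE 0.49, adjusted p = 0.0230), with overlap. The E18.5 call was lost without bladder replicate 2 or 3 or urethra replicate 1 or 3 (log2 1.42 to 1.66, adjusted p 0.0569 to 0.0733). From E14.5 to E18.5 it rose 6.44-fold in bladder (log2 2.69, SE 0.56, adjusted p = 0.00206) and 13.2-fold in urethra (log2 3.73, SE 0.61, adjusted p = 8.77e-04), both without overlap, and the interaction was -1.04 (SE 0.80, adjusted p = 0.383). Other urothelial genes were measured beside it, and the summed level of 8 of them (Upk1a, Upk1b, Upk2, Upk3a, Upk3b, Pparg, Foxa1 and Grhl3) was 6278 ± 1325, 1147 ± 839, 9441 ± 1891 and 2516 ± 155 CPM in the order used above, none at 0. Bladder replicate 3 at E14.5 was the lowest of its group there too (4639 CPM), and had the highest mesenchyme sum (4487 CPM). Its pan-epithelial sum was 4014 CPM, against 4189 to 4639 CPM in the other E14.5 bladder libraries. The part of these sums in its Krt20 value was not tested.

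Krt23, a type I keratin grouped with the simple class, moved toward urethra with stage. The gene (chromosome 11, 99477974 to 99493137) was at 7.35, 3.98, 2.81 and 5.41 CPM in E14.5 bladder and 3.52, 0.451, 1.28 and 0.709 CPM in E14.5 urethra. In the E18.5 set it measured 4.81, 6.47 and 3.79 CPM in E18.5 bladder and 52.7, 112 and 30.7 CPM in E18.5 urethra. At E14.5 the groups overlapped, with bladder 3.22-fold higher (log2 1.69, SE 0.62, adjusted p = 0.0532), which passed without bladder replicate 3 (1.88, adjusted p = 0.0463) or urethra replicate 1 (2.55, adjusted p = 0.00336). It also passed with DESeq2, with voom, with a replicate block and in a fit of all 14 libraries (1.70 to 2.06, adjusted p 0.0144 to 0.0240). At E18.5 every urethral library was above every bladder one, by 13.4-fold (log2 -3.74, SE 0.47, adjusted p = 5.08e-04). It rose 43.9-fold in urethra (log2 5.46, SE 0.64, adjusted p = 1.77e-04) and stood at 1.03-fold in bladder (log2 0.04, SE 0.57, adjusted p = 0.968), and the interaction was -5.42 (SE 0.86, adjusted p = 0.00160). Without urethra E18.5 replicate 2, the highest, the E18.5 difference was -3.11, the urethral change 4.84 and the interaction -4.77. Without urethra E14.5 replicate 1 the last 2 were 6.31 and -6.27.

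**Figure D3:**
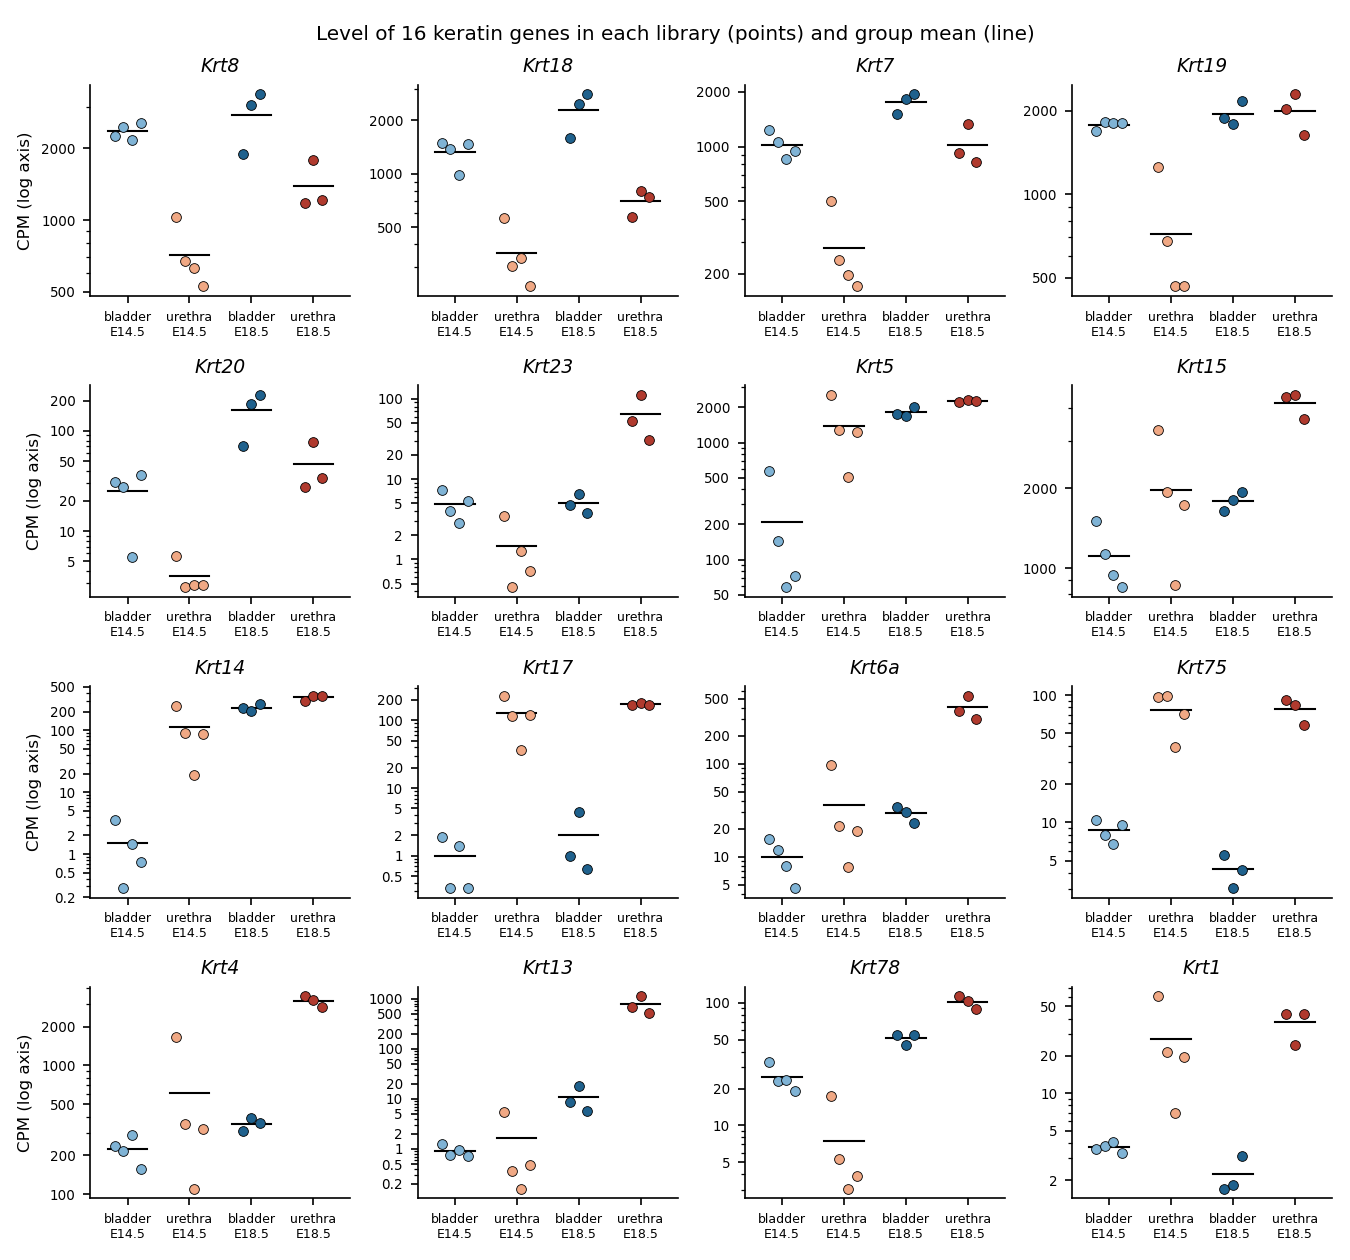
Each point is 1 library and each line a group mean, in CPM on a log axis, for 16 keratins. Krt14 goes from 0.284 to 3.54 CPM in E14.5 bladder to 203 to 261 CPM in E18.5 bladder, while Krt17 stays at 0.336 to 4.49 CPM in all 7 bladder libraries. Krt13 goes from 0.161 to 5.5 CPM to 518 to 1113 CPM in urethra.

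Of the basal keratins, Krt5 and Krt14 showed large urethral excesses at E14.5 and small ones at E18.5, and both rose in bladder. Krt5, the type II basal keratin (chromosome 15, 101707070 to 101712898), was at 567, 143, 58.2 and 72.1 CPM in E14.5 bladder and 2555, 1277, 504 and 1228 CPM in E14.5 urethra. At E18.5 it was at 1769, 1671 and 2026 CPM in E18.5 bladder and 2212, 2293 and 2281 CPM in E18.5 urethra. E14.5 bladder replicate 1 was the highest of its group and overlapped the urethra, and the 3 others lay below every other library. The E14.5 difference was 6.75-fold toward urethra (log2 -2.75, SE 0.81, adjusted p = 0.0240), lost without bladder replicate 2 (-2.61, adjusted p = 0.0647) or 4 (-2.46, adjusted p = 0.0583) and -3.97 without bladder replicate 1. In bladder Krt5 rose 8.67-fold (log2 3.12, SE 0.69, adjusted p = 0.00307), or 4.32 on the log2 scale without E14.5 replicate 1.

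At E18.5 the Krt5 difference was small, 1.29-fold toward urethra (log2 -0.37, SE 0.12, adjusted p = 0.0410), without overlap. It did not pass without any one of 5 of the 6 libraries (all but bladder replicate 3, -0.28 to -0.38, adjusted p 0.0585 to 0.165), with no filter (adjusted p = 0.0574), with a replicate block (adjusted p = 0.0914) or in a fit of all 14 libraries (adjusted p = 0.772), and was 0.00 with pan-epithelial scaling. In urethra the change with stage was 1.63-fold (log2 0.70, SE 0.66, adjusted p = 0.447). The interaction of Krt5 was 2.41 (SE 0.96, adjusted p = 0.0874), and it passed without bladder E14.5 replicate 1 (3.62, adjusted p = 0.00381), with pan-epithelial scaling (3.50, adjusted p = 0.00320), with voom (2.81, adjusted p = 0.0354) and with a replicate block (2.81, adjusted p = 0.00409).

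Krt14, the type I partner of Krt5 in epidermis (chromosome 11, 100203162 to 100207548), was at 3.54, 0.284, 1.47 and 0.739 CPM in E14.5 bladder and 250, 89.3, 18.7 and 87.3 CPM in E14.5 urethra. By E18.5 the level was 226, 203 and 261 CPM in E18.5 bladder and 301, 361 and 362 CPM in E18.5 urethra. The E14.5 bladder libraries lay below all others, and the E18.5 bladder libraries lay below the E18.5 urethral ones. The urethra was 74.9-fold higher at E14.5 (log2 -6.23, SE 0.99, adjusted p = 0.00181) and 1.54-fold higher at E18.5 (log2 -0.62, SE 0.14, adjusted p = 0.00846). Krt14 rose 152-fold in bladder (log2 7.25, SE 0.84, adjusted p = 4.36e-05), the most of the keratins of 10 CPM or more there. In urethra it stood at 3.07-fold (log2 1.62, SE 0.65, adjusted p = 0.0743), which passed with voom (2.14, adjusted p = 0.0109). It was the keratin that moved toward bladder in the interaction (5.63, SE 1.04, adjusted p = 0.00330).

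Single libraries changed the size of the Krt14 results. Without bladder E14.5 replicate 1 the E14.5 difference was -7.20, the bladder change 8.21 and the interaction 6.59, and without urethra E14.5 replicate 1 they were -5.45 and 4.86 for the first and last, with the urethral change passing at 2.39 (adjusted p = 0.00642). The E18.5 difference did not pass with pan-epithelial scaling (-0.26, adjusted p = 0.326) or in a fit of all 14 libraries (-0.57, adjusted p = 0.569).

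Krt15, the other type I basal keratin (chromosome 11, 100131758 to 100135928), had the highest mean per kilobase of the 3 in every group, E14.5 bladder included. Its levels were 1507, 1129, 947 and 849 CPM in E14.5 bladder and 3309, 1940, 864 and 1736 CPM in E14.5 urethra. At E18.5 they were 1644, 1808 and 1939 CPM in E18.5 bladder and 4410, 4493 and 3659 CPM in E18.5 urethra. The groups overlapped at E14.5 (1.80-fold toward urethra, log2 -0.85, SE 0.36, adjusted p = 0.0883), a difference that passed without urethra replicate 3 (-1.10, adjusted p = 0.0185), with pan-epithelial scaling (-1.64), with a replicate block (-0.74, adjusted p = 0.0444) and in a fit of all 14 libraries (-0.82, adjusted p = 0.0407), and they did not overlap at E18.5 (2.42-fold, log2 -1.28, SE 0.13, adjusted p = 1.95e-04). Krt15 rose 2.13-fold in urethra (adjusted p = 0.0211), lost without E14.5 replicate 2 or 4 or E18.5 replicate 1 or 2 (log2 1.04 to 1.08, adjusted p 0.0565 to 0.0658) and with pan-epithelial scaling (0.50). In bladder it stood at 1.62-fold (adjusted p = 0.105), which passed with pan-epithelial scaling (1.23, adjusted p = 6.28e-04, all-gene median 0.54). Its interaction was -0.40 (adjusted p = 0.579) and 0.74 with pan-epithelial scaling (adjusted p = 0.0492), where the median of all genes was 1.29.

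The ratios among the basal keratins were widest in E14.5 bladder. Per kilobase, Krt15 was 424 to 3950 times Krt14 in E14.5 bladder, 13.2 to 46.1 times in E14.5 urethra, 7.23 to 8.86 times in E18.5 bladder and 10 to 14.6 times in E18.5 urethra. Krt5 was 31.7 to 403, 8.18 to 21.6, 6.20 to 6.59 and 5.04 to 5.88 times Krt14 in the same order. In E14.5 bladder the ratios to Krt14 rest on 0.284 to 3.54 CPM of it (178 counts over the group), so their size is uncertain. Against the type I chain Krt15, the type II chain Krt5 was at 0.0495 to 0.302 in E14.5 bladder and at 0.743 to 0.865 in E18.5 bladder, and at 0.469 to 0.621 and 0.404 to 0.501 in urethra. In bladder the ranges of the 2 stages did not overlap for any of the 3 ratios, which were not tested.

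**Figure D4:**
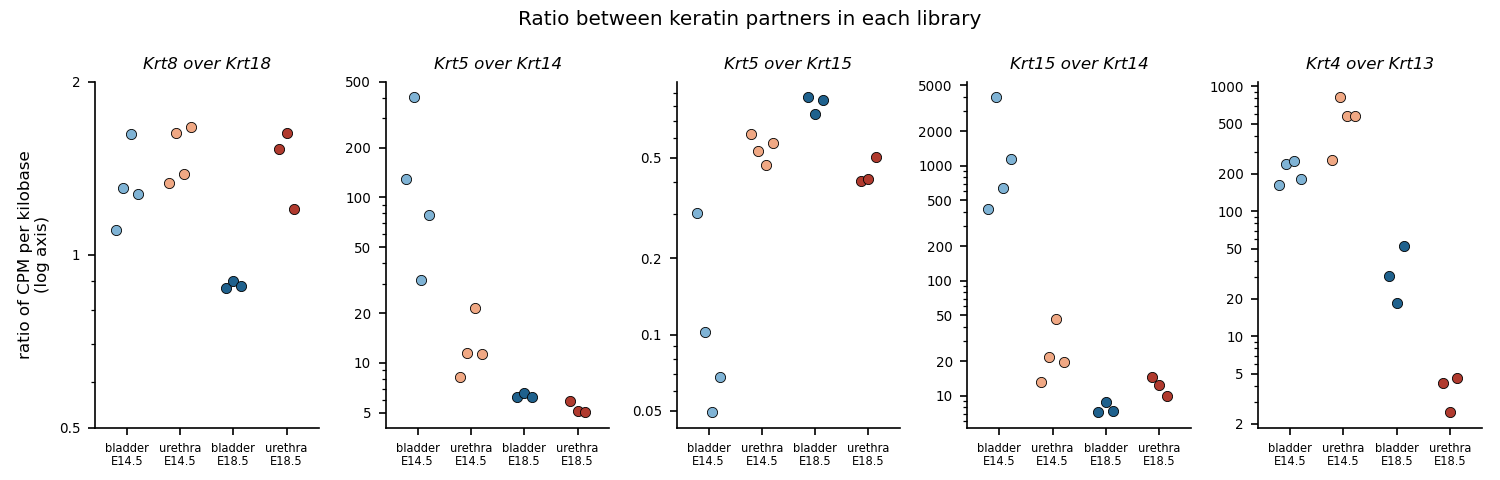
Each point is the ratio of CPM per kilobase of 2 keratins in 1 library, on a log axis that differs between panels. Krt8 over Krt18 is under 1 in the E18.5 bladder libraries (0.877 to 0.901), Krt5 over Krt14 falls from 31.7 to 403 in E14.5 bladder to 6.20 to 6.59 at E18.5, and Krt4 over Krt13 falls from 258 to 818 in E14.5 urethra to 2.46 to 4.68 at E18.5. Krt14 in E14.5 bladder (0.284 to 3.54 CPM) and Krt13 in E14.5 urethra (0.161 to 5.5 CPM) are low, so those ratios are uncertain in size.

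Of the wound-type keratins, which also serve hair follicles and other appendages, Krt17 separated the tissues at both stages and Krt6a did so at E18.5. Krt17, a type I keratin (chromosome 11, 100256217 to 100261029), was at 1.89, 0.341, 1.38 and 0.336 CPM in E14.5 bladder and 231, 115, 36.9 and 121 CPM in E14.5 urethra. The E18.5 libraries had 0.999, 4.49 and 0.639 CPM in E18.5 bladder and 167, 182 and 167 CPM in E18.5 urethra. The urethra was 132-fold higher at E14.5 (log2 -7.04, SE 0.78, adjusted p = 5.28e-04) and 83.6-fold higher at E18.5 (log2 -6.39, SE 0.54, adjusted p = 8.13e-05), with no overlap. Krt17 did not pass a stage test in either tissue (bladder log2 1.13, adjusted p = 0.283, and urethra 0.45, adjusted p = 0.590). The E14.5 difference was -7.68 without bladder replicate 1, and the E18.5 difference -7.73 without bladder replicate 2, the bladder library with the most Krt17.

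Krt6a, a type II keratin (chromosome 15, 101689910 to 101694307), was at 15.4, 11.7, 7.91 and 4.60 CPM in E14.5 bladder and 96.8, 21.2, 7.71 and 18.9 CPM in E14.5 urethra. Values at E18.5 were 34.5, 30.3 and 22.7 CPM in E18.5 bladder and 372, 538 and 299 CPM in E18.5 urethra. The E14.5 groups overlapped (3.70-fold toward urethra, log2 -1.89, SE 0.74, adjusted p = 0.0682), a difference that passed without urethra replicate 3 (-2.22, adjusted p = 0.0311), with pan-epithelial scaling (-2.46), with DESeq2 (adjusted p = 0.0151), with a replicate block (-1.43, adjusted p = 0.0494) and in a fit of all 14 libraries (adjusted p = 0.0265), and at E18.5 the urethra was 14.4-fold higher (log2 -3.85, SE 0.25, adjusted p = 2.83e-05). It rose 11.2-fold in urethra (log2 3.48, SE 0.67, adjusted p = 0.00218), or 4.66 on the log2 scale without E14.5 replicate 1, and stood at 2.94-fold in bladder (adjusted p = 0.0751), which passed with DESeq2 (adjusted p = 0.0352) and with pan-epithelial scaling (adjusted p = 0.00346). Of its 100-base words 47.5% were shared with other genes, 29.5% with Krt6b, and Gm49428 overlaps it on the other strand, so its counts are uncertain.

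Krt6b and Krt16 were of low level. Krt6b had group means of 0.113, 0.302, 0.332 and 4.60 CPM in the order used above, 14.3-fold higher in urethra at E18.5 (adjusted p = 0.00203) and 15.3-fold higher there than at E14.5 (adjusted p = 0.00461, and 5.54 against 3.94 on the log2 scale without E14.5 replicate 1). It shared 30.6% of its words, mostly with Krt6a. Krt16 had 0 counts in the 4 E14.5 bladder libraries and means of 0.262, 0.575 and 5.27 CPM in the others. It was 22.8-fold higher in E18.5 than in E14.5 bladder, against a floor set at 3 counts over the E14.5 group (adjusted p = 0.00667). If 1 fragment gives 2 counts, that floor is too low, so the fold is not a firm lower bound. Krt16 rose 19.9-fold in urethra (log2 4.32, adjusted p = 0.00514, and 3.67 without E18.5 replicate 2). Its E18.5 difference of 9.60-fold toward urethra (log2 -3.26, SE 0.89, adjusted p = 0.0209) was lost without bladder replicate 2 or 3 or urethra replicate 2 (log2 -2.58 to -3.06, adjusted p 0.0660 to 0.0791) and with voom (adjusted p = 0.105), and was -4.21 without bladder replicate 1. Krt16 shared 24.3% of its words, chiefly with Gm11597.

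The mucosal suprabasal keratins became a leading part of the urethral set at E18.5. Krt4, the type II keratin of oesophagus, tongue and other moist linings (chromosome 15, 101918535 to 101924735), was at 237, 216, 287 and 156 CPM in E14.5 bladder and 1660, 353, 110 and 321 CPM in E14.5 urethra. Later, the libraries were at 311, 389 and 359 CPM in E18.5 bladder and 3448, 3213 and 2839 CPM in E18.5 urethra. At E14.5 urethra replicate 1 was far above the other 7 libraries, the groups overlapped and the difference did not pass (log2 -1.47, SE 0.71, adjusted p = 0.125). It passed without urethra replicate 3 (-1.82, adjusted p = 0.0406) and with pan-epithelial scaling (-2.02, adjusted p = 0.00409). At E18.5 the urethra was 9.33-fold higher, without overlap (log2 -3.22, SE 0.14, adjusted p = 7.02e-06). Krt4 rose 5.18-fold in urethra (log2 2.37, SE 0.63, adjusted p = 0.0118), or 3.6 on the log2 scale without E14.5 replicate 1, and in bladder stood at 1.58-fold (adjusted p = 0.425). The bladder change passed with pan-epithelial scaling (1.18, adjusted p = 0.0444, all-gene median 0.54). Its interaction was -1.72 (adjusted p = 0.179), and -2.94 without urethra E14.5 replicate 1 (adjusted p = 6.69e-04).

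Krt13, the type I partner of Krt4 (chromosome 11, 100117327 to 100121566), was at or under 5.5 CPM in every E14.5 library. It was at 1.24, 0.768, 0.966 and 0.739 CPM in E14.5 bladder and 5.5, 0.369, 0.161 and 0.473 CPM in E14.5 urethra. In the E18.5 set it measured 8.71, 18 and 5.80 CPM in E18.5 bladder and 698, 1113 and 518 CPM in E18.5 urethra. Urethra replicate 1 was the highest E14.5 library, and the 3 other urethral libraries lay below all 4 of bladder. The E14.5 difference was -0.82 (SE 0.97, adjusted p = 0.518), and 1.44 toward bladder without urethra replicate 1 (adjusted p = 0.0268). At E18.5 the urethra was 74.2-fold higher (log2 -6.21, SE 0.48, adjusted p = 5.36e-05). Krt13 rose 488-fold in urethra (log2 8.93, SE 0.89, adjusted p = 9.07e-05) and 11.7-fold in bladder (log2 3.55, SE 0.80, adjusted p = 0.00336), without overlap in either.

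The rise of Krt13 was larger in urethra, by the interaction of -5.38 (SE 1.16, adjusted p = 0.00671). Without urethra E14.5 replicate 1 the urethral change was 11.16 and the interaction -7.61, and without bladder E18.5 replicate 2 the bladder change was 2.93 and the interaction -6.01. Per kilobase Krt4 was 163 to 254 times Krt13 in E14.5 bladder and 258 to 818 times in E14.5 urethra, and 18.4 to 52.8 and 2.46 to 4.68 times at E18.5. The ratio was lowest in the 3 E18.5 urethral libraries. At E14.5 Krt13 was at or under 5.5 CPM, so the size of the ratio is uncertain there.

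Krt78, a type II keratin of stratified epithelium (chromosome 15, 101946001 to 101954287), was at 32.9, 23.2, 23.4 and 19.2 CPM in E14.5 bladder and 17.3, 5.37, 3.05 and 3.90 CPM in E14.5 urethra. At E18.5 it was at 55.1, 45.6 and 54.7 CPM in E18.5 bladder and 113, 104 and 89.3 CPM in E18.5 urethra. Bladder was higher at E14.5 (3.28-fold, log2 1.71, SE 0.52, adjusted p = 0.0283) and urethra at E18.5 (2.05-fold, log2 -1.03, SE 0.13, adjusted p = 5.69e-04), each without overlap. It rose 13.8-fold in urethra (log2 3.79, SE 0.47, adjusted p = 2.07e-04), and in bladder stood at 2.10-fold (adjusted p = 0.0640), which passed with DESeq2 (adjusted p = 0.0487), with voom (adjusted p = 0.00311) and with pan-epithelial scaling (adjusted p = 7.77e-04). The interaction was -2.72 (SE 0.63, adjusted p = 0.00949). The E14.5 call was lost without bladder replicate 1 or 2 or urethra replicate 2, 3 or 4 (log2 1.46 to 1.73, adjusted p 0.0532 to 0.0764). Without urethra replicate 1 it was 2.56, the urethral change 4.64 and the interaction -3.57, and the E18.5 call was lost in a fit of all 14 libraries (adjusted p = 0.121).

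Keratins of the upper epidermis were scarce, and of the 7 listed 6 could be tested: 5 were higher in urethra at E14.5 (20.9% of all genes were) and 6 at E18.5 (18.6% of all). Krt1, the type II keratin of the spinous layer (chromosome 15, 101845426 to 101850794), was at 3.54, 3.76, 4.05 and 3.33 CPM in E14.5 bladder and 60.3, 21.6, 6.90 and 19.7 CPM in E14.5 urethra. By E18.5 the level was 1.71, 1.83 and 3.15 CPM in E18.5 bladder and 43.9, 24.7 and 43.7 CPM in E18.5 urethra. The groups did not overlap, with the urethra 7.51-fold higher (log2 -2.91, SE 0.57, adjusted p = 0.00454, and -2.15 without urethra replicate 1) and 17.5-fold higher (log2 -4.13, SE 0.33, adjusted p = 6.72e-05). Its type I partner Krt10 (chromosome 11, 99385254 to 99389364) was at 5.33, 5.75, 7.13 and 6.35 CPM in E14.5 bladder and 19.9, 11.4, 8.31 and 12.3 CPM in E14.5 urethra. The E18.5 libraries had 7.47, 5.33 and 6.34 CPM in E18.5 bladder and 28.3, 18.1 and 31.1 CPM in E18.5 urethra. The urethra was again higher without overlap, 2.15-fold (log2 -1.11, SE 0.26, adjusted p = 0.00984) and 4.21-fold (log2 -2.08, SE 0.24, adjusted p = 3.88e-04).

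Krt2, a type II keratin of the upper epidermis (chromosome 15, 101810689 to 101818169), was at 0.124, 0.0284, 0 and 0.0672 CPM in E14.5 bladder and 14.2, 5.53, 1.65 and 4.49 CPM in E14.5 urethra. Values at E18.5 were 0, 0 and 0 CPM in E18.5 bladder and 26.6, 20.7 and 26.7 CPM in E18.5 urethra. The urethra was 105-fold higher at E14.5 (log2 -6.71, SE 0.89, adjusted p = 9.10e-04), -7.41 without bladder replicate 1 and -5.98 without urethra replicate 1. At E18.5, with 0 counts in bladder, it was 556-fold higher against a floor set at 3 counts over the group (adjusted p = 1.82e-05). If 1 fragment gives 2 counts, that floor is too low, so the fold is not a firm lower bound. In urethra Krt2 rose 3.83-fold (log2 1.94, SE 0.56, adjusted p = 0.0215), a call lost without E14.5 replicate 2 or 4 or E18.5 replicate 1 or 3 (1.79 to 1.9, adjusted p 0.0560 to 0.0629) and 2.66 without E14.5 replicate 1.

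Krt79 and Krt80, type II keratins of epidermis and its appendages, rose in urethra. Krt79 (chromosome 15, 101929332 to 101940324) was at 2.2, 1.05, 1.84 and 1.48 CPM in E14.5 bladder and 2.33, 1.19, 0.963 and 1.42 CPM in E14.5 urethra. Later, the libraries were at 1.95, 1.9 and 2.46 CPM in E18.5 bladder and 14.5, 12.8 and 10.1 CPM in E18.5 urethra. The E14.5 groups overlapped (log2 0.13, SE 0.36, adjusted p = 0.791), the E18.5 urethra was 6.15-fold higher (log2 -2.62, SE 0.24, adjusted p = 1.20e-04), and the interaction was -2.72 (SE 0.45, adjusted p = 0.00201). It rose 8.44-fold in urethra (log2 3.08, SE 0.32, adjusted p = 1.15e-04), and stood at 1.28-fold in bladder (adjusted p = 0.398).

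Krt80 (chromosome 15, 101347444 to 101370162) was at 1.46, 2.65, 3.45 and 2.86 CPM in E14.5 bladder and 7.57, 5.20, 8.87 and 3.82 CPM in E14.5 urethra. In the E18.5 set it measured 4.95, 16.3 and 9.64 CPM in E18.5 bladder and 30.3, 45.4 and 26.0 CPM in E18.5 urethra. It was higher in urethra without overlap at both stages (2.50-fold, adjusted p = 0.0161, and 3.41-fold, adjusted p = 0.00780) and rose 3.98-fold in bladder (adjusted p = 0.00178) and 5.32-fold in urethra (adjusted p = 9.74e-04). Gm35853 overlaps its whole gene on the other strand. Krt77 was lower, with group means of 0.312, 1.07, 0.258 and 2.68 CPM, 3.41-fold higher in urethra at E14.5 (adjusted p = 0.0347) and 11-fold at E18.5 (adjusted p = 0.00849). Its E14.5 call was lost without bladder replicate 1, 2 or 3 or urethra replicate 1 or 4 (log2 -1.21 to -1.82, adjusted p 0.0714 to 0.0842) and with a replicate block (-1.66, adjusted p = 0.0540), and the E18.5 difference was -2.80 without bladder replicate 2. Its urethral change passed without E14.5 replicate 1 (1.88, adjusted p = 0.0397).

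With stage, Krt10 rose 1.99-fold in urethra (log2 0.99, adjusted p = 0.0121), lost without E18.5 replicate 3 (0.87, adjusted p = 0.0519) and with pan-epithelial scaling (0.35). Krt1 did not pass there (log2 0.47, adjusted p = 0.505) but did without E14.5 replicate 1 (1.22, adjusted p = 0.0188). The 12 cornified epidermis genes examined (Lor, Flg, Flg2, Hrnr, Krtdap, Sbsn, Casp14, Asprv1, Lce1a1, Lce1b, Dsg1a and Cdsn) summed to 42.7 ± 17.4, 125 ± 60.6, 43.8 ± 5.19 and 528 ± 209 CPM in the order used above. Flg, which encodes filaggrin, and Lce1a1 had 0 counts in all 4 groups, and 4, 4, 6 and 2 of the 12 were at 0 in them. The part that cells of this kind had in the urethral values of Krt1, Krt2 and Krt10 was not tested.

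Of the 9 follicle sheath keratins, Krt75 alone reached 1 CPM, and it was a urethral gene at both stages. This type II keratin (chromosome 15, 101563345 to 101573904), known from the companion layer of hair, was at 10.4, 7.97, 6.81 and 9.51 CPM in E14.5 bladder and 96.0, 99.0, 39.1 and 70.4 CPM in E14.5 urethra. At E18.5 it was at 5.52, 3.05 and 4.23 CPM in E18.5 bladder and 91.6, 82.9 and 57.8 CPM in E18.5 urethra. The urethra was higher without overlap, 8.95-fold at E14.5 (log2 -3.16, SE 0.30, adjusted p = 3.68e-04) and 19.0-fold at E18.5 (log2 -4.24, SE 0.26, adjusted p = 2.31e-05). Krt75 was the keratin that fell in bladder (2.04-fold, log2 -1.03, SE 0.32, adjusted p = 0.0200), a call lost without E14.5 replicate 4 or E18.5 replicate 2 or 3 (-0.86 to -1.05, adjusted p 0.0524 to 0.0796), with voom (adjusted p = 0.182) and with pan-epithelial scaling (-0.45). In urethra its change was 0.02 (SE 0.29, adjusted p = 0.960).

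Of the hair and nail keratins, Krt84 and Krt36 passed 1 CPM in the E18.5 urethra. Krt84 had group means of 0.211, 0.83, 0.0656 and 1.89 CPM and was higher in urethra at both stages (4.02-fold, adjusted p = 0.0129, and 29.9-fold, log2 -4.90, adjusted p = 0.00601). Its E18.5 bladder level rested on replicate 3 (0.197 CPM), the other 2 being at 0, so the fold is uncertain, and the difference was -4.24 without replicate 2. Without replicate 3 the group has 0 counts and no size is given, and Krt84 then also passed as lower at E18.5 in bladder (adjusted p = 0.0221). Krt36, with means of 0.216, 0.434, 0.270 and 1.40 CPM, was 5.37-fold higher in urethra at E18.5 (adjusted p = 0.00320). It rose 3.22-fold in urethra (log2 1.69, adjusted p = 0.0272), lost without E14.5 replicate 3 or 4 or E18.5 replicate 2 or 3 (1.41 to 1.75, adjusted p 0.0530 to 0.107) and with pan-epithelial scaling (1.02), and 2.56 without E14.5 replicate 2. Krt31, under 1 CPM, was 5.96-fold higher in urethra at E18.5 (adjusted p = 0.0294), on 10 counts in the E18.5 bladder group. That call was lost without bladder replicate 3 or urethra replicate 1 or 2, with a replicate block and in a fit of all 14 libraries.

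**Figure D5:**
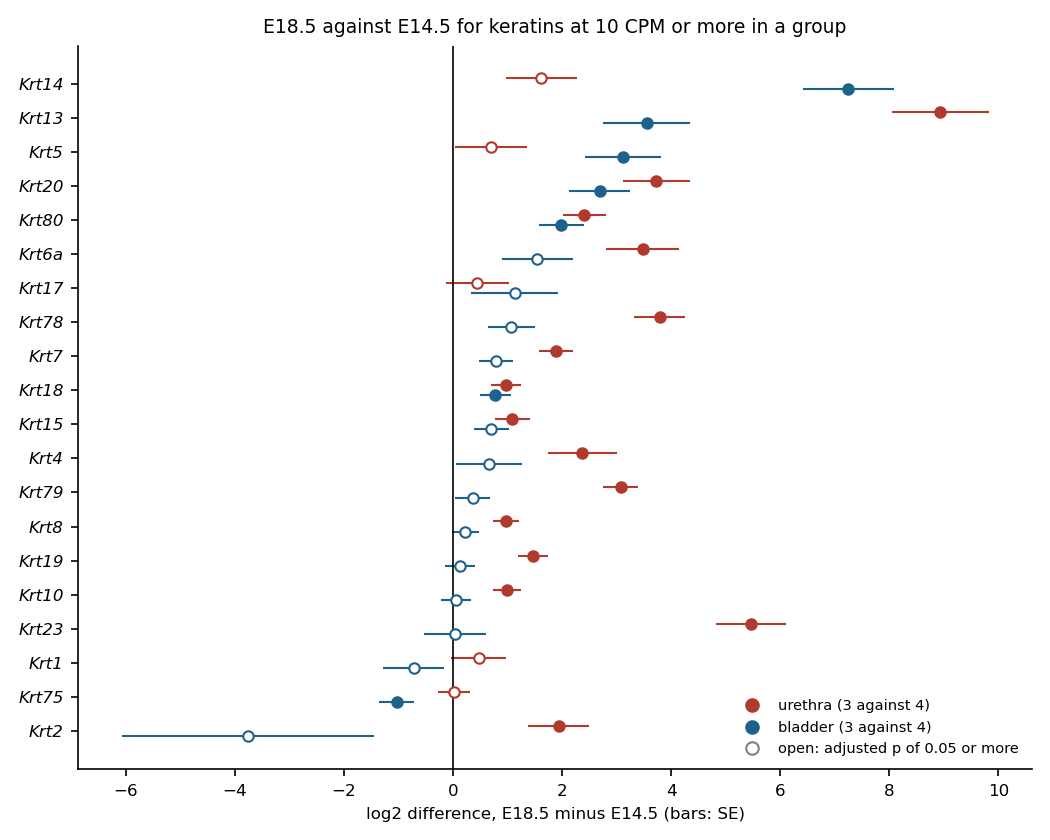
Points are the log2 difference, E18.5 minus E14.5, of each keratin of 10 CPM or more, in urethra (red) and bladder (blue), each 3 against 4 libraries, with bars of 1 SE. Points right of 0 are higher at E18.5, and open points did not pass. Krt14 (7.25 in bladder, 1.62 in urethra) and Krt5 (3.12 and 0.70) have the larger value in bladder, and Krt13 (3.55 and 8.93) and Krt23 (0.04 and 5.46) in urethra.

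Genes for proteins that tie keratins to junctions or organise them were examined beside the keratins. Of 16 tested of 17 listed, 5 were higher in bladder (23.1% of all genes were) and 2 in urethra (20.9% of all) at E14.5, with a median of 0.33 (all genes -0.03). At E18.5, 0 were higher in bladder (19.3% of all, and 1 of the 16 at an unadjusted p under 0.05, 1 with DESeq2 and 0 with voom) and 7 in urethra (18.6% of all), with a median of -0.26. Pkp1, which encodes the desmosomal plaque protein plakophilin 1, was higher in urethra at both stages, at 12.3 ± 4.61 against 140 ± 128 CPM (11.6-fold, adjusted p = 0.00444) and 25.5 ± 2.86 against 419 ± 53.3 CPM (17.1-fold, adjusted p = 5.40e-06). Tchh, which encodes trichohyalin, a keratin cross-linker of the follicle, was 5.06-fold higher in urethra at E18.5 (adjusted p = 4.10e-05), and Dsp, which encodes the keratin-anchoring desmoplakin, 2.30-fold (adjusted p = 7.28e-04). At E14.5 Pkp2 (2.43-fold, adjusted p = 8.84e-04) and Fam83h (2.56-fold, adjusted p = 0.00324), which encodes a protein that organises keratin filaments, were higher in bladder.

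With stage, 7 of the 16 rose in urethra (17.3% of all genes did) and 0 fell (15.7% of all, and 1 of the 16 fell at an unadjusted p under 0.05, and 0 with DESeq2 or voom), with a median of 0.67, led by Tchh (4.38-fold, adjusted p = 4.37e-04), Plec (1.61-fold, adjusted p = 0.00721), which encodes the linker plectin, and Ppl (2.83-fold, adjusted p = 0.00848), which encodes periplakin. In bladder 1 rose (Dst, 1.71-fold, adjusted p = 0.0208) and 4 fell, beside 19.9% and 20.4% of all genes, with a median of -0.25, among them Pkp2 (1.70-fold, adjusted p = 0.00349). The interaction moved 6 toward urethra (10.7% of all) and 0 toward bladder (12.2% of all, and 0 of the 16 also at an unadjusted p under 0.05, with DESeq2 and with voom), led by Tchh (-2.41, adjusted p = 0.00295).

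The intermediate filament genes of other cells and of the nucleus were higher in bladder at E18.5 where they passed. Of 14 tested of 16 listed, 5 were higher in bladder at E18.5 (19.3% of all genes were) and 0 in urethra (18.6% of all, and 0 of the 14 at an unadjusted p under 0.05, 1 with DESeq2 and 0 with voom), among them Vim, the filament of mesenchyme (830 ± 175 against 204 ± 49.2 CPM, 3.91-fold, adjusted p = 2.52e-04), Synm (12-fold, adjusted p = 5.42e-04) and Des, the filament of muscle (715 ± 376 against 122 ± 79.0 CPM, 5.61-fold, adjusted p = 0.00802). At E14.5, 2 were higher in bladder (23.1% of all) and 2 in urethra (20.9%). Vim stood at 119 ± 67.6 CPM in E14.5 bladder and 239 ± 99.7 in E14.5 urethra (adjusted p = 0.0987). Vim, Synm and Des were highest in E18.5 bladder, as were the mesenchyme and smooth muscle sums given above, and the part of those cells in these values was not tested. Des is itself among the 10 genes of the smooth muscle sum, so for Des the sum is not a separate measure.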

How the data were processed

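RNA of 14 libraries of mouse bladder and urethral epithelium was sequenced by the authors as paired reads from poly(A) RNA with a directional kit, per the labels' protocols. Per the submitters' processing notes the build was GRCm38 and the tools included SAMtools 1.9, HISAT2 2.2.1 and bcl2fastq. The deposited values are raw counts per gene symbol, in one table for each stage. For the counting tool, its strand setting and its annotation, the entry is: not given in the sources used here. Among deposited counts of 1 to 10 most were even numbers, so that 1 fragment may give 2 counts, and a count is then not an independent molecule.

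Groups were taken from the labels. Counts were fitted with edgeR 4.0.16 (R 4.3.3) by its quasi-likelihood test, after trimmed-mean scaling and its default filter on low counts, and p-values were Benjamini-Hochberg adjusted over all genes tested, with a threshold of 0.05. Tissue tests used the libraries of 1 stage, and stage and interaction tests used all 14. Alternatives were DESeq2 1.42.0, its size factors in edgeR, voom in limma 3.58.1, no filter, scaling on 7 pan-epithelial genes, a replicate block, 1 fit of all libraries and leaving out each library. Ratios and shares were also computed with the length of the main GENCODE transcript, an alternative chosen after seeing the data. The procedure was tested on simulated data. All 54 keratins had the coordinates of GENCODE M21, and promoters came from RefSeq.

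The members, classes and lists were chosen with earlier results of these data known. Keratins reaching 10 CPM in a group are given by library, and the others by group mean or by name. Replicates of a group differed beyond counting noise in every pair. P-values measure only the spread between these samples, which per the labels are pools of litters. The main tests took libraries as unpaired, although a litter gave both tissues. Each stage has its own table, so stage and any difference in handling between tables cannot be told apart.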

Additional observations from a re-analysis of the deposited data

Results flagged for a closer look

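In 40 groups of 4 libraries, from keratins of 10 CPM or more, a library lying far from the other 3 was looked for, and 3 were found, where chance alone gives about 1 in 20 groups. The number found is near that rate, and the groups are not independent because they share the same libraries. Krt20 was at 5.47 CPM in bladder E14.5 replicate 3, below the 27.3 to 36.5 CPM of the others, and at 5.59 CPM in urethra E14.5 replicate 1, above the 2.75 to 2.91 CPM of the others. Krt19 was at 1688 CPM in bladder E14.5 replicate 1, below the 1807 to 1825 CPM of the others.

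For 6 keratins the difference between bladder and urethra changed between stages by the interaction test. Toward urethra these were Krt23 (log2 -5.42), Krt13 (-5.38), Krt79 (-2.72), Krt78 (-2.72) and Krt19 (-1.34), and toward bladder Krt14 (5.63). The adjusted p-values and the libraries they rest on stand with each gene above.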

How the results depend on the processing

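The counts of keratins that passed moved most with scaling and with single libraries. With pan-epithelial scaling all genes passing were 11833 at E14.5 (main value 7351), 9976 for urethral stage (6031) and 12790 for the interaction (4183), keratins higher at E18.5 in bladder were 14 and lower ones 0 (7 and 1), and keratins shifted to bladder in the interaction were 4 (1). DESeq2 gave 11 keratins higher at E18.5 in bladder, and voom gave 0 lower there and 2 shifted to bladder. With pan-epithelial scaling the Krt5 difference at E18.5 was 0.00 and had no direction. The interactions of Krt15 and Krt18 changed sign on that scale, to 0.74 and 0.98. In the main fit they were -0.40 and -0.19 and did not pass (adjusted p = 0.579 and 0.766). Both new values lay below the median of all genes on that scale, 1.29. The E14.5 difference of Krt13 turned without urethra E14.5 replicate 1 (1.44, against -1.20 as the lowest value when 1 library was left out). Leaving out 1 library gave 1 to 4 keratins higher in bladder at E18.5 (lowest without bladder replicate 3 or urethra replicate 1), 0 to 1 lower at E18.5 in bladder, and in the interaction 1 to 2 shifted to bladder, 4 to 13 to urethra and 2654 to 5697 genes in all (lowest without urethra E18.5 replicate 1, highest without urethra E14.5 replicate 1). The cause of these moves was not tested. Per the labels each litter gave both tissues, but none states that the same replicate number marks the same litter. Same-numbered libraries correlated at 0.15, 0.131, 0.391 and -0.104 at E14.5 and at 0.138, -0.146 and -0.189 at E18.5, so the data do not settle the pairing. With a replicate block the interaction gave 2 keratins to bladder and 9 to urethra, and the calls it changed are named above. Not every library correlated best with its own number. Depth limits the 29 keratins under 1 CPM, most of which had too few counts to test.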
